A study of Homo sapiens with 22 samples.

Results

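The sites described here are the places on chromosomes 1 to 22 at which BAF was found whatever the cells carried. They were taken from the SMARCA4 peak list of cells with wild-type ARID1A (WT). The sites were selected on the deposited peak calls of both subunits. A peak was kept when it shared at least 1 bp with a SMARCA4 peak and a SMARCC1 peak in WT, in both replicates of the empty vector (Empty), and in CBR, DBDmut, delIDR1 and DDX4, which makes 14 lists. Of 12720 WT SMARCA4 peaks, 1648 (13.0%) met all 14 lists and are called common sites. A WT SMARCC1 peak lay at 9585 of the WT SMARCA4 peaks (75.4%), which are called WT BAF sites, so 7937 WT BAF sites were not common.

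All cells were AN3CA, a line grown from a human endometrial carcinoma. Empty cells carried the vector without ARID1A, and the other constructs gave wild-type ARID1A, the CBR truncation mutant, an ARID domain mutant (DBDmut), the delIDR1 truncation mutant or a hybrid with an IDR named for DDX4. The labels do not say which promoter drove the constructs, whether a line was 1 clone, how much ARID1A the cells made on their own, or whether libraries came from separate cultures. CUT&Tag was done for SMARCA4, SMARCC1 and H3K27ac in every construct, with 2 Empty replicates and 1 library of each other construct per antibody, and the HA tag was profiled in DDX4 cells. In CUT&Tag an antibody in permeable nuclei recruits a transposase, and the DNA cut next to the bound protein is sequenced.

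BAF complexes slide and evict nucleosomes and so hold promoters and enhancers accessible. SMARCA4 is the ATPase that drives this, SMARCC1 is part of the core on which the complex is built, and ARID1A is a large subunit of the canonical form. H3K27ac marks nucleosomes of active promoters and enhancers. Chromosome ends carry telomere repeats, and centromeres are built of satellite DNA that the hg19 assembly leaves as gaps, with satellite copies on the flanks. Reads from such repeats can be placed at several positions of an assembly.

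Each library was deposited as 1 list of peaks. The authors' fold enrichment is the pileup at a peak's summit over the local background, each with 1 added, and their -log10 q ranks the peaks, so that rank 1 is the strongest peak of a list over all its sequences. The lists held 5411 to 92136 peaks, with a lowest -log10 q of 2.0 to 2.03. Total read numbers are not known, but the pileup and the local background, in fragments, were recovered from the fold and the p-value. The start of each peak name carries a stamp: Empty replicate 1, WT, CBR, DBDmut and delIDR1 share 1 stamp, DDX4 has another and Empty replicate 2 one of its own. What a stamp means is not in the labels; sequencing run is 1 reading. A library made without an antibody to a chromatin target was not analysed here, nor was a list of repeats or artefact-prone regions.

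Meeting every list was the most frequent outcome among WT BAF sites. The number of sites was 1389 with the 2 WT lists alone, lowest at 392 with 9 lists, and then higher again at 723 with 13 lists and 1648 with 14. The median rank among WT SMARCA4 peaks was 7774 for the sites with 2 lists, 4133 with 13 lists and 1936.5 with 14. The common sites were thus 17.2% of the WT BAF sites, and they stood at the upper end of WT strength.

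**Figure D1:**
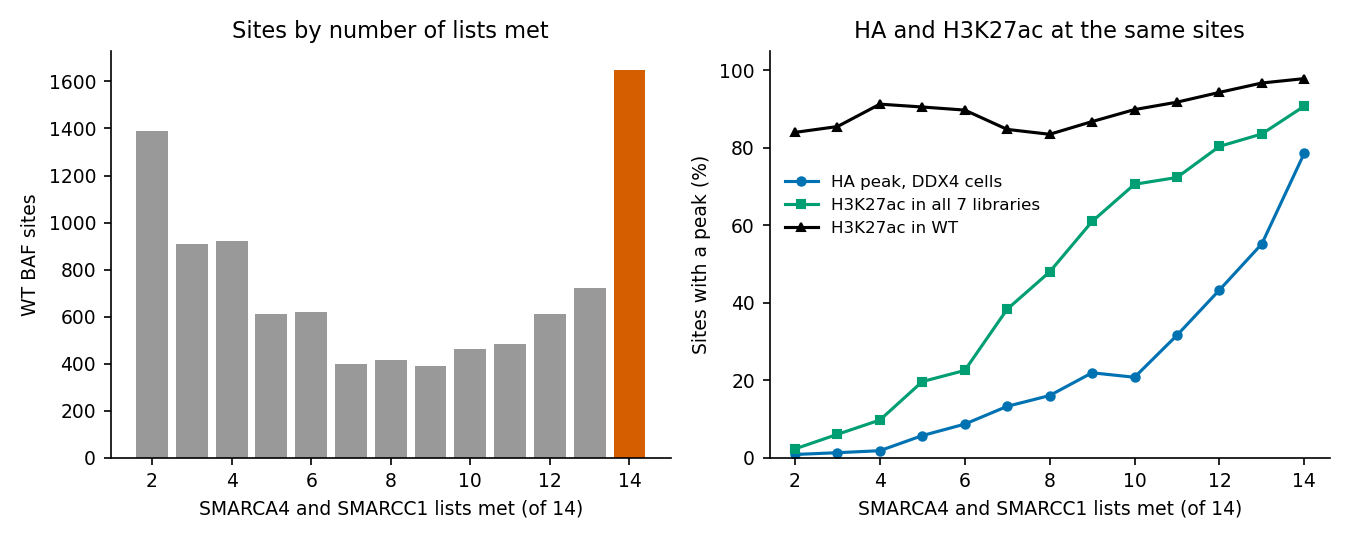
Left, number of WT BAF sites (y axis) by how many of the 14 SMARCA4 and SMARCC1 lists they met (x axis), with the 1648 common sites in orange. Right, share of the same sites (%) with an HA peak in DDX4 cells, with H3K27ac in all 7 libraries and with H3K27ac in WT: the first rises from 0.864% to 78.6% and the second from 2.30% to 90.7%, while the third stays between 83.5% and 97.8%.

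The common sites were among the stronger and wider peaks of each list that chose them. In WT SMARCA4 their median fold was 9.68 (quartiles 7.92 and 12.0), against 7.0 for the other WT BAF sites. Their median summit pileup was 17 fragments against 10, and their median width 248.5 bp (quartiles 186 and 340) against 159 bp. These values come from the lists that picked the sites and are given as a description, without a test.

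The same held in the other 13 lists. The median fold at the common sites ran from 9.60 to 12.2, where the remaining peaks of those lists had medians of 5.91 to 6.97. The median width ran from 241 bp in delIDR1 SMARCA4 to 509 bp in Empty replicate 2 SMARCC1. Between 54.6% of the sites (Empty replicate 1 SMARCA4) and 92.4% (WT SMARCC1) were in the top 25% of the list.

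A list's length set how much of it the common sites filled. They met 30.2% of the 5453 peaks of Empty replicate 1 SMARCA4, the shortest of the 14 lists on these chromosomes, and 6.97% of the 23364 of WT SMARCC1, the longest. At the top of the lists they were the majority: 71 to 81 of the 100 strongest SMARCA4 peaks and 82 to 91 of the 100 strongest SMARCC1 peaks met a common site. In the strongest 10% of peaks the share was 47.1% (WT SMARCC1) to 77.8% (Empty replicate 1 SMARCA4), and in the weakest 10% it was at most 2.01%.

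**Figure D2:**
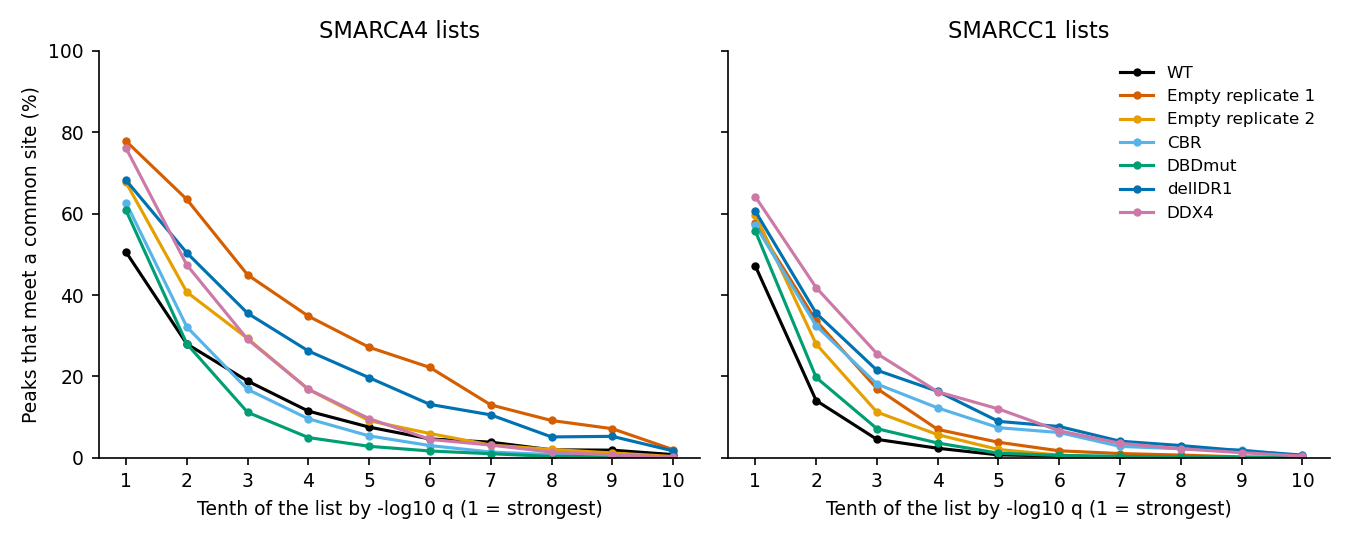
Share of peaks that meet a common site (y axis, %) in successive 10% steps of a list ordered by -log10 q (x axis, 1 is strongest), for the 7 SMARCA4 lists (left) and the 7 SMARCC1 lists (right). Every line falls from 47.1% to 77.8% in the first step to at most 2.01% in the last.

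Very strong sites were unevenly placed, and 3 classes were set apart by position or local background before the rest was described. Of the 1648 sites, 94 (5.70%) lay within 500 kb of a sequence end or of a centromere gap, against 3.34% of all WT SMARCA4 peaks. They were 54 sites near an end (background 1.59%) and 40 near a gap (1.75%). A further 21 lay elsewhere but had a local background at least 50 times the lowest of the WT SMARCA4 list, a limit chosen after the values were seen. Only 30 WT SMARCA4 peaks (0.236%) were of that kind, and 70.0% of them were common sites. These flags rest on distance and on pileup, since no repeat annotation was used. The remaining 1533 sites are called the unflagged sites, which may still include repeats, copies of mitochondrial DNA or artefact-prone regions.

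Of the 20 common sites with the highest WT SMARCA4 rank, 8 were near an end, 4 near a gap, 7 had a high local background elsewhere and 1 was unflagged. Among the first 100 the numbers were 15, 14, 19 and 52. Leaving the flagged sites out hardly moved the typical site: the unflagged sites had a median fold of 9.62, a width of 245 bp and a median pileup of 17 in WT SMARCA4. Flagged sites were wider, with a median of 370.5 bp near an end, 520 bp near a gap and 584 bp with a high local background, and 17 of the 22 sites over 1000 bp were flagged.

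**Figure D3:**
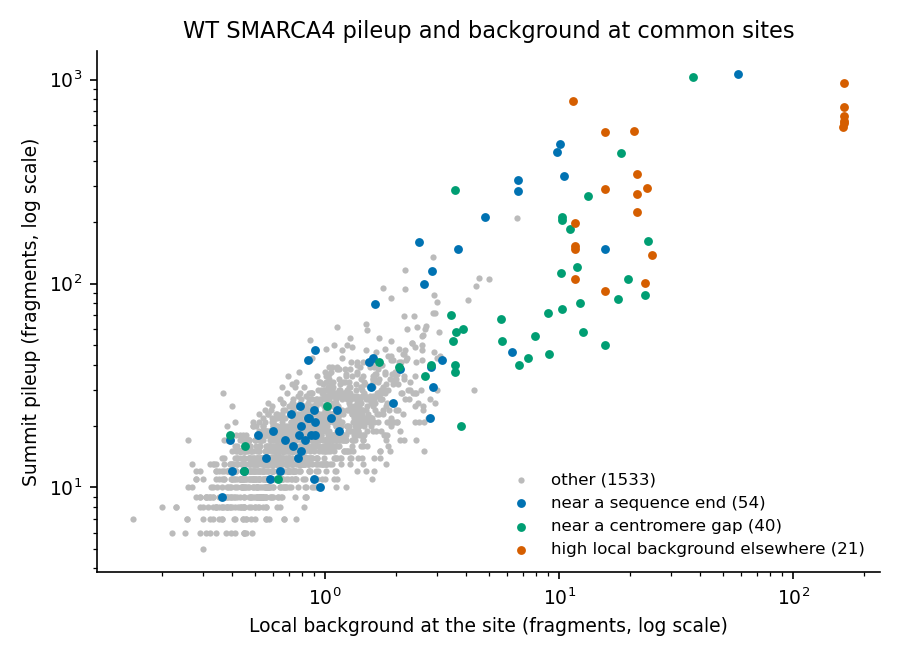
Summit pileup (y axis) against local background (x axis) in the WT SMARCA4 library, both in fragments on log scales, 1 point per common site, coloured by class. The unflagged sites end at a local background of 6.62 and a pileup of 210, while the 6 sites of 1 cluster on chromosome 1 sit at the right edge near a background of 165.

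Near sequence ends the sites reached up to the assembled edge. On hg19, 12 sites lay within 20 kb of an end, on 12 ends of 11 chromosomes, with a median WT SMARCA4 rank of 36 (3 to 1196). Of these, 10 met all 22 lists, H3K27ac and HA included. The strongest lay on chromosome 5 from 10028 to 11776, at rank 3 in WT SMARCA4 and at ranks 1 to 10 over the 14 lists. Its WT pileup was 1061 fragments over a local background of 58.3, so its fold was only 17.9. At this site the SMARCA4 fold was 13.5 and 8.37 in the Empty replicates, 16.6 in CBR, 14.1 in DBDmut, 13.3 in delIDR1 and 9.36 in DDX4. The H3K27ac fold there was 8.98 to 17.6 over 7 libraries and the HA fold was 10.04, so the fold ranges of the antibodies overlapped.

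Others of this kind were found on chromosome 12 (133841524 to 133841891), chromosome 1 (249239898 to 249240608, and 10004 to 10461) and chromosome 18 (10023 to 10622). Their WT SMARCA4 ranks were 7, 15, 17 and 19. They lay 10.003 to 10.022 kb from the ends of their sequences. The site on chromosome 4 from 10002 to 10193 was the strongest common site without an HA peak by summed rank over the 14 lists (rank 60 in WT SMARCA4), with SMARCA4 and SMARCC1 folds of 20.5 to 39.7. A pair of sites farther in, on chromosome 12 from 95186 to 95735 (95.2 kb from the end) and on chromosome 4 from 191043635 to 191044229 (110.0 kb), had ranks 10 and 13 in WT SMARCA4. Both had H3K27ac in all 7 libraries and an HA peak.

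Sites near centromere gaps were broad and had a raised local background. Their median local background in WT SMARCA4 was 7.06 fragments, against 0.747 at the unflagged sites, and their median pileup was 58 against 17. The strongest, on chromosome 1 from 121484062 to 121485424, lay 50.01 kb from the gap and ranked 1 to 6 over the 14 lists. Its SMARCA4 fold was 26.9 in WT, 23.8 and 17.5 in the Empty replicates, 25.7 in CBR and in DBDmut, 24.4 in delIDR1 and 17.6 in DDX4. Its H3K27ac fold was 16.5 to 28.4 and its HA fold 19.0. The ranges of the antibodies overlapped. For SMARCA4, Empty replicate 2 and DDX4, the libraries with other stamps, were below the other 5.

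The site on chromosome 17 from 22020575 to 22020876, 242.1 kb from the gap, had the highest fold of any common site in 10 of the 14 lists and differed from these in its H3K27ac. Its SMARCA4 and SMARCC1 folds were 43.4 to 63.5, and H3K27ac was called in WT, Empty replicate 2 and delIDR1 alone, with folds of 12.6 to 13.5. The widest common site lay on chromosome 6 from 58776269 to 58779477, 50.7 kb from the gap. It was 3209 bp wide, with SMARCA4 and SMARCC1 folds of 5.25 to 6.48 and H3K27ac folds of 5.20 to 7.02. The next were 2216 bp on chromosome 18 from 18518119 to 18520334 and 1875 bp on chromosome 2 from 92324066 to 92325940, which lay 0.231 kb from its gap.

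By summed rank over the 14 lists, the strongest common site (37, with 38 for the next) was in the high local background class. It lay on chromosome 13 from 110076479 to 110076687, ranked 1 in WT SMARCA4 with a pileup of 785 over a local background of 11.4, and stayed within ranks 1 to 7 in all 14 lists. The SMARCA4 fold there was 63.2 in WT, 52.9 and 38.6 in the Empty replicates, 55.6 in CBR, 54.4 in DBDmut, 52.8 in delIDR1 and 39.6 in DDX4. The SMARCC1 fold was 48.3 in WT, 54.7 and 42.9 in the Empty replicates, 57.8 in CBR, 51.3 in DBDmut, 48.0 in delIDR1 and 53.9 in DDX4. For SMARCA4 the 2 lowest values were those of Empty replicate 2 and DDX4, the libraries with other stamps. H3K27ac was called there in WT, both Empty replicates and CBR, with folds of 17.8 to 29.5.

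A different profile belonged to a cluster of 6 sites on chromosome 1 from 564496 to 570277, a stretch of hg19 known to hold a copy of mitochondrial DNA. The WT SMARCA4 pileups were 583 to 961 fragments over local backgrounds of 163 to 165, so the folds were only 3.56 to 5.79 although the best rank was 14. All 6 sites had an HA peak. H3K27ac was called in all 7 libraries at 1 of them and in none at another. On chromosome 5, 3 sites from 79946336 to 79947492 and 3 from 134259828 to 134263072 had local backgrounds of 15.6 to 15.7 and of 21.5 to 21.6. None of these 6 had H3K27ac in all 7 libraries, and all 6 had HA. Whether other sites named here also hold copies of mitochondrial DNA was not examined.

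Among the unflagged sites, the strongest over the 14 lists were named after the values were seen. The first, chromosome 3 from 96336042 to 96336973, had a SMARCA4 fold of 27.7 in WT, 25.7 and 22.7 in the Empty replicates, 25.6 in CBR, 25.7 in DBDmut, 22.8 in delIDR1 and 23.6 in DDX4. Its H3K27ac fold was lower, 4.89 to 7.90, in the 4 libraries that had a peak. The site on chromosome 1 from 236260417 to 236260706 had SMARCA4 folds of 36.7 in WT, 27.1 and 23.04 in the Empty replicates, 41.1 in CBR, 38.0 in DBDmut, 32.7 in delIDR1 and 24.9 in DDX4. Here both Empty replicates and DDX4 were below the other 4 constructs for SMARCA4. Empty replicate 2 and DDX4 are the libraries with other stamps. The SMARCC1 folds did not share that order, with 28.0 and 30.4 in the Empty replicates and 34.3 in DDX4. They were 30.3 in WT, 38.6 in CBR, 34.2 in DBDmut and 30.3 in delIDR1. The H3K27ac fold at the site was 24.6 to 42.1 in all 7 libraries.

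The site on chromosome 19 from 45394019 to 45394493 had SMARCA4 folds of 22.7 in WT, 23.1 and 23.3 in the Empty replicates, 21.9 in CBR, 26.7 in DBDmut, 24.0 in delIDR1 and 21.5 in DDX4, and H3K27ac in all 7 libraries. The Empty values lay inside the range of the constructs with ARID1A. Further strong unflagged sites lay on chromosome 9 from 66971023 to 66971639, chromosome 7 from 94287126 to 94287909, chromosome 6 from 27100463 to 27100861, chromosome 2 from 242294915 to 242295508, chromosome 1 from 143913218 to 143913814 and chromosome 10 from 76585825 to 76586350. All 6 had H3K27ac in all 7 libraries and an HA peak, and their median folds over the 14 lists were 14.1 to 29.8.

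Nearly all common sites carried H3K27ac, a mark the choice of sites did not use, although its libraries are of the same constructs that chose the sites. H3K27ac was found at 1612 sites (97.8%) in WT, where 79.8% of all WT SMARCA4 peaks had it. Each Empty replicate also had 1612 sites, with backgrounds of 46.3% and 53.0%. The number was 1571 (95.3%) in CBR (background 49.4%), 1590 (96.5%) in DBDmut (69.6%), 1552 (94.2%) in delIDR1 (64.2%) and 1606 (97.5%) in DDX4 (51.8%). All 7 libraries agreed on 1495 sites (90.7%, Wilson 95% interval 89.2 to 92.0, counting error only), against 36.0% of all WT SMARCA4 peaks.

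The other WT BAF sites had H3K27ac at 88.8% in WT but at 46.4% and 53.6% in the Empty replicates, 51.3% in CBR, 78.4% in DBDmut, 72.9% in delIDR1 and 54.5% in DDX4. The common sites exceeded them by 33.0 ± 16.4 percentage points (SD over 7 libraries), with the difference positive in 7 of 7. The two-sided exact sign-flip permutation test over libraries gave p = 0.0156, also after Benjamini-Hochberg adjustment over 6 such tests, the smallest value that 7 libraries allow. The difference was narrowest in WT, 8.98 points, and widest in Empty replicate 1, 51.5 points. With the other sites weighted to the same WT SMARCA4 strength the mean difference was 29.4 points (exact p = 0.0156), and that in WT was 5.92 points. The libraries share the site sets, so the test speaks of the libraries and not of new sites. The rule also asked for both subunits in the same constructs whose H3K27ac was scored. Every site of the other set lacked a SMARCA4 or SMARCC1 peak in at least 1 library outside WT. How much of the difference follows from that choice was not tested.

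A closer set for comparison was the 897 WT BAF sites that had both subunits in both Empty replicates but lacked 1 or both in a mutant. They were weaker in WT SMARCA4, with a median fold of 7.38 against 9.68 at the common sites. Their H3K27ac share was 86.4% to 96.1%, and the common sites were 5.82 ± 2.40 points higher (7 of 7 libraries, exact p = 0.0156). With that set weighted to equal strength the difference was 9.0 ± 2.93 points. Where a site carried H3K27ac, the mark's peak was also broader at common sites. The median H3K27ac width exceeded that at the other WT BAF sites by 107 to 330.5 bp, 186 ± 82.8 bp on average (exact p = 0.0156). In the ranking of H3K27ac lists the common sites stood nearer the top, by -9.74 ± 2.17 percentile points (exact p = 0.0156). Any 7 differences of the same sign give this p-value, whatever their size, and the sets compared were fixed by the choice of sites.

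**Figure D4:**
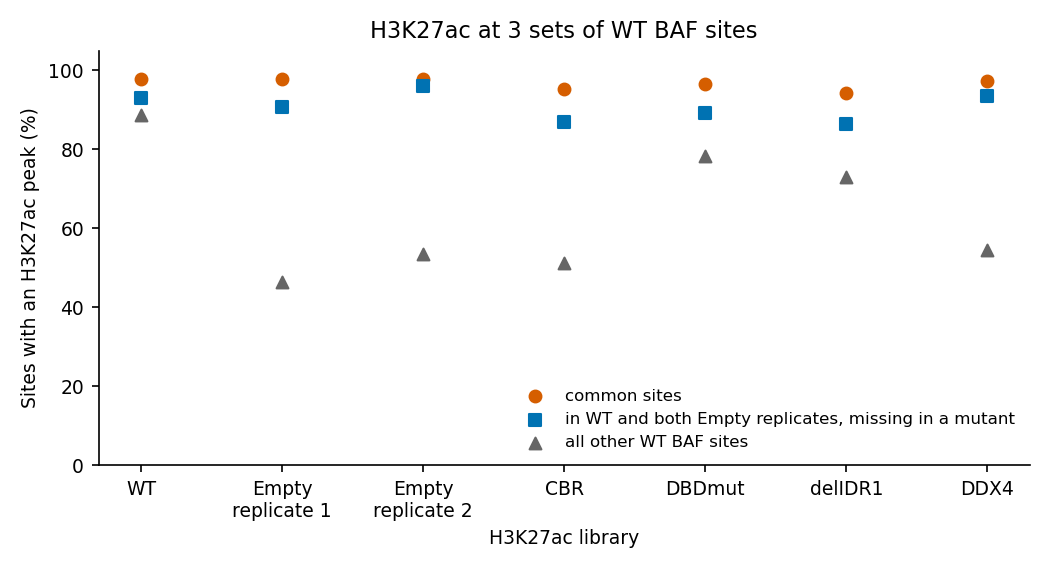
Share of sites with an H3K27ac peak (y axis, %) in each of the 7 H3K27ac libraries (x axis), for the common sites, for WT BAF sites present in both Empty replicates but missing in a mutant, and for all other WT BAF sites. The common sites lie at 94.2% to 97.8% and above both other sets in each library, with the smallest gap to the last set, 8.98 points, in WT.

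No difference in the H3K27ac share at the common sites was detected between the libraries with any form of ARID1A, wild-type or mutant, and the Empty libraries. The share was close to 100% in every library, which leaves little room for a difference to show. The 5 libraries with a form of ARID1A had a mean share of 96.25% ± 1.51 (SD, n = 5), and both Empty replicates had 97.8%. The difference of -1.57 points gave p = 0.238 (exact permutation over 21 labelings, two-sided, lowest possible value 0.0476). The form values all lay at or below those of Empty, with WT level with Empty. Within the first stamp the difference was -1.87 points, between 4 forms and 1 Empty replicate. Sites that lacked the mark in 1 library alone lacked it mainly in delIDR1 (34 sites) and CBR (26), then Empty replicate 1 (9), DBDmut (7) and WT (2). The H3K27ac lists held 31772 peaks in delIDR1, the fewest, 41067 in CBR, 36400 in Empty replicate 1, 39193 in DBDmut and 50937 in WT. DDX4 (36325 peaks) and Empty replicate 2 (92136) had 0 such sites. The part of list length in these counts was not tested.

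Flagged sites differed in this mark. H3K27ac was found in all 7 libraries at 47 of 54 sites near an end (87.0%), 26 of 40 near a gap (65.0%), 6 of 21 with a high local background (28.6%) and 1416 of 1533 unflagged sites (92.4%). Only 10 sites (0.607%) had no H3K27ac peak in any library, against 14.0% of WT SMARCA4 peaks, and 3 of the 10 had a high local background. The strongest site among them that passed the distance and background limits lay on chromosome 2 from 88124415 to 88124814. Repeats and copies of mitochondrial DNA there were not examined. Its SMARCA4 fold was 29.5 in WT, 29.8 and 26.95 in the Empty replicates, 31.4 in CBR, 26.3 in DBDmut, 25.2 in delIDR1 and 24.9 in DDX4, a narrow range, and its HA fold was 17.4.

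Further sites without H3K27ac were on chromosome 17 from 51183158 to 51183742 and chromosome 2 from 49456772 to 49457016, both with HA, and on chromosome 1 from 77436926 to 77437065, without HA. Their median folds over the 14 lists were 20.8, 21.3 and 17.1. The site on chromosome 5 from 67558434 to 67558840 was less even. Its SMARCA4 fold was 20.3 in WT, 13.8 and 11.5 in the Empty replicates, 19.1 in CBR, 12.7 in DBDmut, 6.55 in delIDR1 and 5.33 in DDX4. The last 2 were the lowest, and the SMARCC1 fold in DDX4, 22.01, did not share that order.

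HA, the tag on the ARID1A form, was profiled in 1 library, from DDX4 cells, so its values have no replicate. An HA peak lay at 1295 of the common sites (78.6%, Wilson 95% interval 76.5 to 80.5), against 20.7% of all WT SMARCA4 peaks. The share was 48.3% at the sites present in both Empty replicates but missing in a mutant and 15.7% at the other WT BAF sites, or 19.7% when these were weighted to equal WT strength. DDX4 itself was 1 of the constructs that chose the sites, and its HA library has the DDX4 stamp, so the HA peaks and the choice of sites share the same cells.

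Seen from the HA list, 1282 of 5268 HA peaks (24.3%) met a common site, and 91 of the 100 strongest did. HA followed the strength of SMARCA4 in the same cells. With the sites split by DDX4 SMARCA4 rank into 5 groups of 329 or 330, the HA share from strongest to weakest was 94.8%, 87.8%, 77.3%, 75.4% and 57.6%. The 353 sites without HA had a median DDX4 SMARCA4 rank of 2140, against 959 for those with it. H3K27ac was present in all 7 libraries at 93.0% of the sites with HA and 82.4% of those without. By class, HA was present at 81.5% of sites near an end, 52.5% near a gap, 85.7% with a high local background and 79.1% of unflagged sites. Of the unflagged sites, 1141 (74.4%) met all 22 lists.

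Common sites mostly stood alone. When sites less than about 13 kb apart were joined, 1442 (87.5%) had no common neighbour, 158 formed pairs and 48 (2.91%) fell into 12 clusters of 3 or more. The share in clusters was 6.45% for the 7937 other WT BAF sites, 3.68% for the 897 sites present in both Empty replicates but missing in a mutant, and 10.2% for all WT SMARCA4 peaks. These sets differ in size, and the part of their size in the shares was not tested. Of the 12 clusters, 11 with 45 sites were of flagged classes. The only unflagged cluster held 3 sites on chromosome 3 from 15634042 to 15643460, with folds of 6.32 to 14.0 and HA at each.

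The cluster with most members had 9 sites over 35.9 kb on chromosome 2 from 92290047 to 92325940, beside the centromere gap, with WT SMARCA4 folds of 3.06 to 12.8. HA was found at 3 of the 9 and H3K27ac in all 7 libraries at 5. After the 6 sites on chromosome 1 came 5 sites on chromosome 11 from 51569918 to 51591342, 52.9 kb from the gap, all with H3K27ac in all 7 libraries and 3 with HA. A cluster of 4 sites over 4.28 kb on chromosome 8 had a local background of 11.7 and HA at 3 sites. Neighbouring sites can share 1 broad peak in another list: 20 to 57 of the common sites did so in each of the other 13 SMARCA4 and SMARCC1 lists, up to 3 sites on 1 peak.

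Chromosome 19 held more common sites for its length than any other autosome. It had 150 sites, 25.4 per 10 Mb against 5.72 over all autosomes, and 24.6% of its WT SMARCA4 peaks were common against 13.0% overall. Chromosome 17 followed with 95 sites (11.7 per 10 Mb). The lowest density was on chromosome 18, with 17 sites (2.18 per 10 Mb) and 7.87% of its WT SMARCA4 peaks. Without flagged sites chromosome 19 had 139 sites (23.5 per 10 Mb). Gene density was not analysed here.

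**Figure D5:**
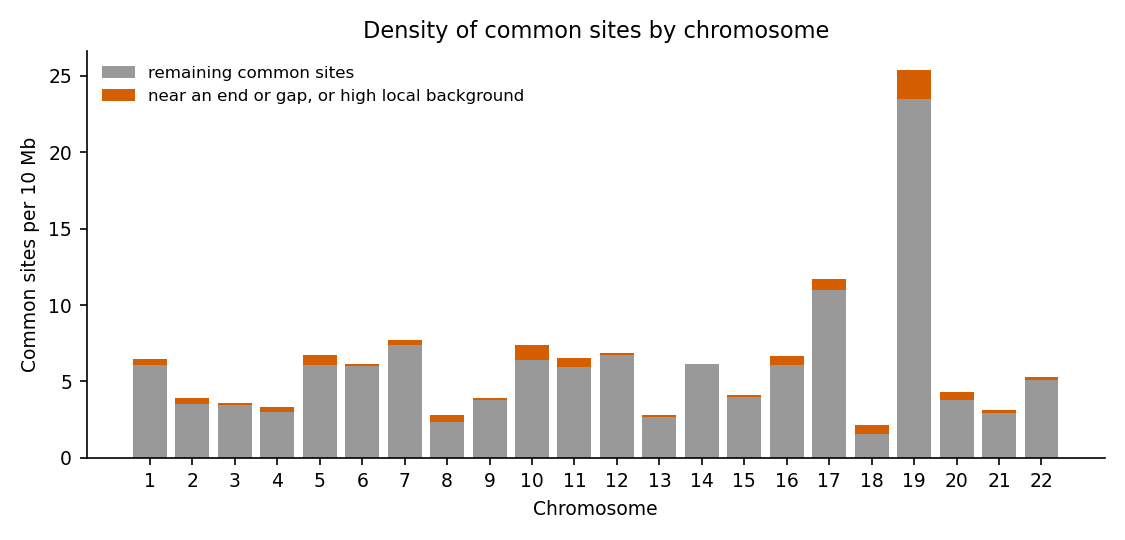
Common sites per 10 Mb (y axis) on each autosome (x axis), with flagged sites in orange stacked on unflagged sites in grey. Chromosome 19 stands at 25.4 and chromosome 17 at 11.7, while chromosome 18 is lowest at 2.18.

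Within the 1533 unflagged sites the summits of the antibodies lay close together. For SMARCA4 and SMARCC1 the choice of sites asked for overlapping peaks, which by itself keeps summits close. The median distance between the SMARCA4 and SMARCC1 summits of 1 construct was 27 bp (DBDmut) to 36 bp (Empty replicate 2), with 78.7% to 86.4% of sites within 100 bp. Summits of the same antibody in different libraries were 30 to 43 bp apart for SMARCA4 and 19 to 33 bp for SMARCC1, so the distance between both subunits was of the same size as that between libraries. The H3K27ac summit lay farther off, 45 to 66 bp from the SMARCA4 summit, with 60.7% to 69.2% of sites within 100 bp. At the common sites H3K27ac peaks were also wider, with medians of 486.5 to 1056.5 bp against 241 to 453 bp for SMARCA4. The part of peak width in the distance was not tested. In DDX4 cells the HA summit was 42 bp from that of SMARCA4.

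The order of strength among the unflagged sites was shared in part. As a description across 1533 sites, Spearman's rho of the ranks was 0.44 to 0.69 over 21 pairs of SMARCA4 lists and 0.56 to 0.75 over 21 pairs of SMARCC1 lists. For SMARCA4 and SMARCC1 of the same construct it was 0.43 to 0.66. The Empty replicates had 0.52 for SMARCA4 and 0.72 for SMARCC1, where the medians over the 21 pairs were 0.54 and 0.68. These replicates carry different stamps, so agreement of replicates cannot be told apart from a difference of stamp. The points of each pair share the sites.

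Sites just inside the rule were weak in at least 1 list. The site with the weakest single rank lay on chromosome 18 from 60472125 to 60472643, at rank 21306 in WT SMARCC1 but 207 in CBR SMARCC1, with folds of 4.92 to 19.2. Others were on chromosome 3 from 50374906 to 50375094 (worst rank 21298), chromosome 2 from 92313184 to 92313521 (18349), chromosome 21 from 9832096 to 9832383 (17151) and chromosome 19 from 6199628 to 6199875 (17071).

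Just outside stood 723 sites that lacked exactly 1 of the 14 peaks. The missing peak was most often SMARCA4 of delIDR1 (183 sites), Empty replicate 1 (171) or Empty replicate 2 (83), lists of 7011, 5453 and 9210 peaks, and, leaving out WT, least often SMARCC1 of Empty replicate 2 (2 sites). These sites had a median WT SMARCA4 fold of 7.92, H3K27ac in all 7 libraries at 83.5% and HA at 55.2%. By summed rank over the other 13 lists the strongest lay on chromosome 5 from 134263343 to 134263505, at rank 44 in WT SMARCA4, and lacked SMARCA4 in Empty replicate 2. Next came sites on chromosome 11 from 10530442 to 10530629, without SMARCC1 in DDX4, and on chromosome 21 from 9826975 to 9827562, without SMARCC1 in delIDR1. These 3 had a high local background. The next, on chromosome 8, was unflagged, with a WT SMARCA4 fold of 44.1 at rank 34, H3K27ac in all 7 libraries and no SMARCC1 peak in delIDR1. It was followed by an unflagged site on chromosome 2 from 89874956 to 89875607, at rank 166, without SMARCA4 in DDX4.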

How the data were processed

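CUT&Tag libraries of AN3CA cells were prepared with 14 PCR cycles, per the labels' protocols. Per the submitters' processing notes, coordinates are hg19 and bcl2fastq was used (no version named). The aligner, the peak caller, how duplicates were handled and whether a control was used is not given in the sources used here. Titles gave each sample's construct and antibody.

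The authors deposited 1 list per library in the 10-column narrowPeak layout, called without pooling. The deposited fold is a ratio of summit pileup to local background, each with 1 added. The authors' -log10 p-value and -log10 q-value belong to each peak within its own list. The deposited score is 10 times the -log10 q, rounded down, and was not used further. Folds of different libraries are set side by side as deposited, without a test. Where several peaks of a list met a site, the one of highest -log10 q was taken.

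Whole pileups were recovered from fold and p-value, read as a Poisson tail, with a tolerance of 0.01 in -log10 p, which succeeded for 99.9957% to 100% of a library's peaks. Positions of hg19 sequence ends and centromere gaps were written by hand, and 0 of 498330 peaks lay past an end or inside a gap. The H3K27ac shares were compared by two-sided exact permutation tests over libraries, because the library and not the site is the unit. With no replicates outside Empty, p-values speak only of these libraries. Where all differences had the same sign, the sign-flip p-value did not depend on their spread. On simulated lists 12720 of 12720 sites were scored as simulated, and 19999 of 20000 simulated pileups were recovered.

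The members, sets and tests were chosen with earlier results of these data known. Named sites follow a rule: the 20 common sites of smallest summed rank over the 14 lists that are away from ends and gaps, the 10 near them, the 5 widest, the 5 strongest without H3K27ac and with and without HA, the 5 clusters with most sites, the 5 of highest single rank and the 5 strongest lacking 1 peak. The strongest unflagged sites and further sites without H3K27ac were added after seeing values. Not every site the rule picks is named. No genome or annotation of hg19 was used here, so sites have no gene, exon or sequence. Computations used Python 3.11.15, numpy 2.4.6, scipy 1.17.1, pandas 2.3.3 and matplotlib 3.10.9.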

Additional observations from a re-analysis of the deposited data

Results flagged for a closer look

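Sequences outside chromosomes 1 to 22 were not part of the comparisons. By the same rule, 17 of 229 WT SMARCA4 peaks on chromosome X met all 14 lists. On the mitochondrial sequence 13 of 14 did. No control library was analysed beside them. The part of mitochondrial reads in the strong sites on chromosome 1, or in strong sites elsewhere, was not tested.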

How the results depend on the processing

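The number of common sites stayed between 1212 and 1940 under 13 settings, which covered overlap, summit distance, a stricter -log10 q, lists of equal length, SMARCA4 alone, leaving out CBR, DBDmut, delIDR1, DDX4 or 1 Empty replicate, chromosome X and no flagged sites. With SMARCC1 alone it was 3453, counted among the 23364 WT SMARCC1 peaks and not among the WT SMARCA4 peaks. Without either Empty replicate it was 1733 to 1827. The H3K27ac difference between common and other WT BAF sites kept its direction under all 8 settings (5.82 to 35.1 points). The lowest value came from another comparison set, the sites in both Empty replicates but missing in a mutant. Without either Empty replicate the difference was 29.9 to 31.1 points (exact permutation p = 0.0312). In each setting the p-value was the lowest that the number of libraries allows, so it does not tell the settings apart. The difference between forms of ARID1A and Empty passed the threshold of 0.05 under none of 6 settings (-1.87 to -1.31 points). It was -1.57 to -1.57 without either Empty replicate, where 6 labelings are too few to reach 0.05. The first stamp alone gave -1.87 points, and its 4 forms and 1 Empty replicate also leave too few labelings. The HA share was 72.2% with a -log10 q of at least 5 and 69.6% with the HA summit inside the site, since both ask more of a peak. The share in clusters was 2.12% at 5 kb, 8.56% at 50 kb and 0.196% without flagged sites. Within 100 kb of an end or gap lay 45 sites and within 2000 kb 201. At 20 times the lowest local background 39 sites fell in that class. No paired analysis was possible because only Empty has replicate numbers, so samples of different constructs could not be blocked by number. Total read depth is unknown, so a site missing from a list may be below its limit of detection.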
